A study of Mus musculus with 12 samples.

Results

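The nuclear-encoded subunits of respiratory complexes II, III, IV and V, together with cytochrome c, were followed across 12 expression arrays of mouse brown adipose tissue. The set was a list of 40 gene symbols, and a gene counted as measured where a probe set carried that symbol alone in the platform annotation. By this rule 38 genes were measured, of 22180 genes on the array with such a probe set. They comprised 4 subunits of complex II, 8 of the 9 listed for complex III, cytochrome c, 10 of the 11 listed for complex IV and all 15 listed for complex V (the ATP synthase). Uqcr10 and Cox6c were not analysed here, because each shares its probe sets with another gene symbol. Atp5f1 appears in the annotation under its newer symbol, Atp5pb. Where a gene had several probe sets, the brightest was used.

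The arrays came from 4 groups of 3 mice on the C57BL/6J background. The knockouts carried floxed Sel1L alleles (Sel1L f/f) and an Adiponectin-Cre transgene, B6.FVB-Tg(Adipoq-cre)1Evdr/J, and the controls were Sel1L f/f littermates. Sel1L works with the ubiquitin ligase Hrd1 to clear misfolded proteins out of the endoplasmic reticulum (ER). The groups were knockouts at room temperature, controls at room temperature, knockouts at 4 °C and controls at 4 °C, and all 12 mice had been fasted for 5 h under those conditions. The Adipoq promoter drives Cre in adipocytes of every depot, so that other cells in the tissue keep Sel1L, and both genotypes carry the floxed alleles. The tissue is brown adipose tissue in the sample labels, although the design text of the series names brown adipocytes. Age and sex were not used here. For control replicate 3 at room temperature, the title gives room temperature and the source name gives 4 °C, and it was analysed as room temperature.

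The respiratory chain passes electrons from NADH and succinate to oxygen. Complex II, succinate dehydrogenase, links the citric acid cycle to the chain, complex III passes electrons from ubiquinol to cytochrome c, and complex IV, cytochrome c oxidase, reduces oxygen. Complexes III and IV pump protons, and complex V uses the returning protons to make ATP. In brown fat, uncoupling protein 1 lets protons return without ATP synthesis, which releases heat. The tissue is known for dense mitochondria, with much respiratory chain and little ATP synthase relative to it. Complexes III to V also hold subunits encoded in mitochondrial DNA. Of the 6 of these that were looked for, 0 had a probe set of their own.

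The genotype labels and the tissue were checked first. Sel1l read 6.18, 6.09 and 5.92 in the knockouts at room temperature, against 7.37, 6.96 and 7.23 in the controls at room temperature (difference -1.12 ± 0.14, SE, on the log2 scale; limma adjusted p = 0.00114). The values at 4 °C were 6.90, 6.73 and 6.54 in the knockouts, against 6.99, 6.69 and 7.04 in the controls, and the groups overlapped (-0.19 ± 0.14, adjusted p = 0.605). Sel1l thus did not separate the arrays labelled knockout and control at 4 °C, whose genotypes are given as labelled. Which part of the transcript this probe set reads was not used here. The mean of 10 ER stress genes, which include Sel1l and were chosen with earlier results of these data known, separated the genotypes at both temperatures. This mean was 8.18 to 8.58 in the knockouts against 6.22 to 6.25 in the controls at room temperature. In the cold it was 9.27 to 9.51 in the knockouts against 6.26 to 6.33 in the controls. Ucp1 lay between 12.38 and 12.83 on all 12 arrays. The median of all probe sets lay between 2.03 and 2.09.

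Most of the 38 subunit genes were bright and steady. All values are log2 expression. Brightness also depends on the probes, so a level is compared only between arrays and not between genes. The mean over 12 arrays was above 9 for 24 of the 38 genes and below 6 for 7. The range over the 12 arrays was under 1 for 34. In complex II the mean level ran between 9.36 for Sdhc, a membrane anchor, and 11.35 for Sdha, the flavoprotein that oxidises succinate. Complex III ran between 4.90 for Uqcrq and 11.45 for Uqcrb, both small subunits, and cytochrome c (Cycs) averaged 11.50. Complex IV ran between 5.43 for Cox6a2 and 12.40 for Cox6a1, which encode the muscle and the widespread isoform of the same subunit. Complex V ran between 1.82 for Atp5g1 and 12.11 for Atp5b, the catalytic beta subunit. Atp5g1, Atp5g2 and Atp5g3 encode the same mature c-ring protein, and they averaged 1.82, 10.40 and 7.46. The mean of Atp5g1 thus lay below the median of every array, and it is not read as a level of the gene. The largest ranges were those of Cox6a2 at 3.86, Uqcr11 at 1.16 and Atp5o, a stalk subunit of the ATP synthase, at 1.07.

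**Figure D1:**
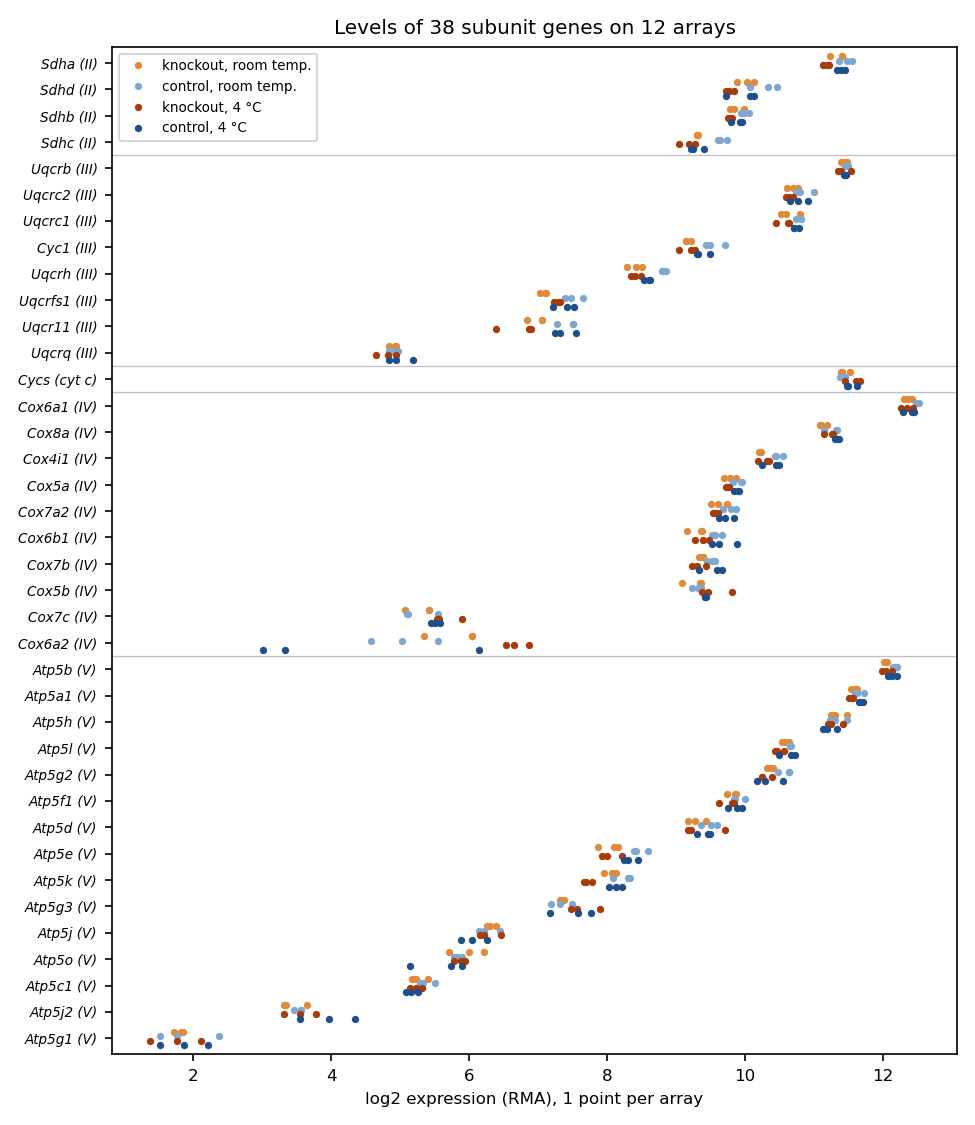
Log2 expression (RMA) of the 38 subunit genes, 1 point per array, grouped by complex and coloured by genotype and temperature (3 arrays per group). The points of most genes lie close together, with a range under 1 for 34 of 38, while those of Cox6a2 spread over 3.86.

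Knockouts were compared with controls at each temperature and averaged over both, to ask whether loss of Sel1L in adipocytes changes subunit transcripts. Most subunit genes read slightly lower in the knockouts, by amounts that seldom passed the test. The complex III genes Uqcr11, Uqcrh and Cyc1 and the ATP synthase genes Atp5e and Atp5k were called lower in the average over both temperatures, by 1.22-fold to 1.46-fold. The muscle isoform Cox6a2 was called higher. In these bulk samples, fewer cells of a type and less RNA per cell cannot be told apart. A gene was called where its limma p, adjusted over all 23521 probe sets with 1 symbol, was under 0.05.

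At room temperature 0 of the 38 genes were called by limma, against 1.72% of all probe sets. At an unadjusted p under 0.05, 8 were lower in the knockouts and 0 higher, which is 21.1% lower, against 6.22% of all probe sets lower and 6.78% higher. The difference was negative for 30 and positive for 8, with a median of -0.12 against -0.01 over all probe sets. All 3 knockouts lay below all 3 controls for 13 genes (34.2%), against 8.62% of all probe sets, and above them for 0, against 8.76%. The medians were -0.20 in complex II, -0.26 in complex III, -0.13 in complex IV and -0.09 in complex V. Whether the complexes differ from each other was not tested.

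At 4 °C 3 of the 38 genes were called, against 5.8% of all probe sets. Uqcr11 and Atp5k were lower (2.19% of all probe sets were) and Cox6a2 was higher (3.61%). At an unadjusted p under 0.05 there were 6, against 16.9% of all probe sets. The difference was negative for 29 genes, with a median of -0.11 against -0.01 over all probe sets. All 3 knockouts lay below all 3 controls for 12 genes (31.6%), against 10.7% of all probe sets, and above them for 1, Cox6a2, against 11.2%. By complex the medians were -0.16, -0.17, -0.11 and -0.08 in complexes II, III, IV and V. The comparisons at the 2 temperatures share no array, and 28 of the 38 genes (73.7%) had a negative difference at both, against 30.7% of all probe sets. A positive difference at both was found for 7 (18.4%), against 27.1%.

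Averaged over both temperatures, 6 of the 38 genes were called, against 6.96% of all probe sets. Of these 5 were lower (2.73% of all probe sets were) and 1 was higher (4.24%). At an unadjusted p under 0.05, 12 genes (31.6%) were lower and 1 was higher, against 9.41% and 9.64% of all probe sets. All 6 knockouts lay below all 6 controls for 5 genes (13.2%), namely Uqcr11, Uqcrh, Cyc1, Atp5e and Cox6b1, against 0.727% of all probe sets, and above them for 0, against 1.85%. When the skeletal muscle score described below was added to the model, 2 genes were called, Uqcr11 lower and Cox6a2 higher, and the median difference of the 38 genes was -0.11.

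**Figure D2:**
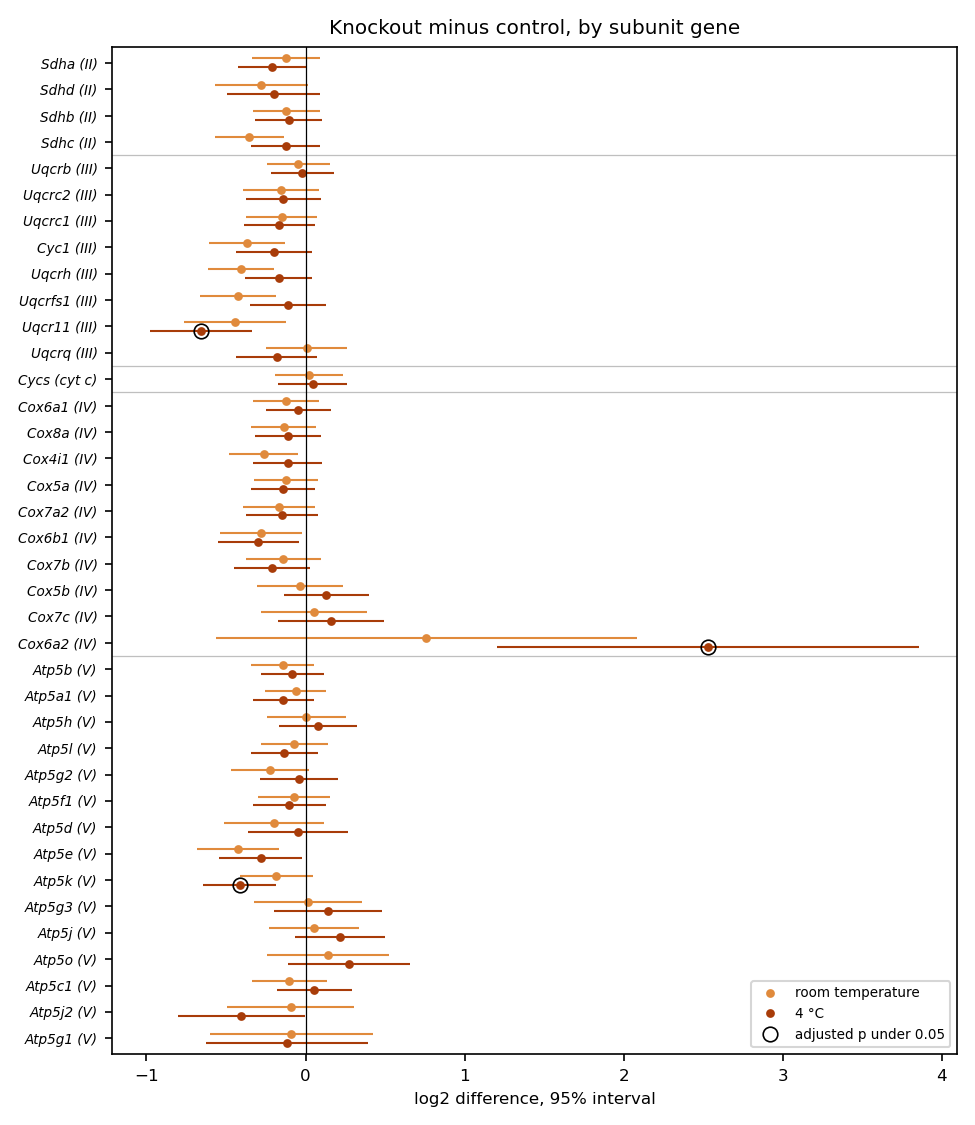
Knockout minus control difference in log2 expression for each subunit gene at room temperature and at 4 °C (points), with the 95% interval of the model (lines). Circled points have an adjusted p under 0.05. Most points lie just left of 0, while Uqcr11, Atp5k and Cox6a2 are circled at 4 °C.

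In complex III, all 8 genes had a negative difference averaged over temperature, against 52.5% of all probe sets. Of these, 3 were called, against 2.73% of all probe sets called lower. Uqcr11 encodes a small subunit at the edge of the complex. It read 7.06, 6.84 and 7.06 in the knockouts at room temperature, against 7.51, 7.51 and 7.27 in the controls at room temperature. At 4 °C it read 6.86, 6.39 and 6.89 in the knockouts, against 7.25, 7.55 and 7.31 in the controls. All of the 6 knockout arrays lay below all of the 6 control arrays. The difference was -0.44 ± 0.15 at room temperature (adjusted p = 0.195), -0.65 ± 0.15 at 4 °C (1.57-fold lower, adjusted p = 0.0203) and -0.55 ± 0.10 averaged (1.46-fold lower, adjusted p = 0.00621). The averaged call was kept without each array in turn and under the 8 other alternatives, with a highest adjusted p of 0.0190. The call at 4 °C was lost without knockout replicate 2 at 4 °C (adjusted p = 0.0788) and without control replicate 2 at 4 °C (adjusted p = 0.0799).

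Uqcrh encodes the hinge protein, which helps cytochrome c1 to meet cytochrome c. Its values were 8.42, 8.51 and 8.29 in the knockouts and 8.85, 8.79 and 8.81 in the controls at room temperature. In the cold they were 8.41, 8.50 and 8.35 in the knockouts and 8.62, 8.54 and 8.61 in the controls. The knockouts were below the controls throughout, and the controls stood higher at room temperature than at 4 °C. The averaged difference was -0.29 ± 0.07 (1.22-fold lower, adjusted p = 0.0213), with -0.41 ± 0.10 at room temperature (adjusted p = 0.0537) and -0.17 ± 0.10 at 4 °C (adjusted p = 0.426). Leaving out knockout replicate 3 or control replicate 1 at room temperature, or knockout replicate 3 or control replicate 1 at 4 °C, ended the averaged call (adjusted p = 0.0506 to 0.0549). So did the muscle score in the model (-0.28, adjusted p = 0.106).

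Cyc1, cytochrome c1, hands electrons to cytochrome c. It read 9.23, 9.15 and 9.15 in the knockouts, against 9.71, 9.43 and 9.49 in the controls at room temperature. The 4 °C values were 9.04, 9.22 and 9.27 in the knockouts, against 9.50, 9.32 and 9.30 in the controls. No knockout reached the lowest control. The averaged difference was -0.28 ± 0.08 (1.22-fold lower, adjusted p = 0.0494), and it stayed called only without control replicate 2 at room temperature, with an adjusted p of 0.0565 to 0.116 without any other array. Uqcrfs1, the Rieske iron-sulfur protein, read 7.10, 7.12 and 7.03 in the knockouts and 7.66, 7.47 and 7.39 in the controls at room temperature. The groups did not overlap there (-0.42 ± 0.11, adjusted p = 0.0799), but they did at 4 °C (-0.11 ± 0.11, adjusted p = 0.717). The core proteins Uqcrc1 and Uqcrc2 and the small subunit Uqcrb differed on average by -0.16, -0.15 and -0.03, with 95% intervals of -0.32 to 0.00, of -0.31 to 0.02 and of -0.17 to 0.11.

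In complex II, all 4 genes had a negative difference at both temperatures, against 30.7% of all probe sets. Of the 4, 0 were called by limma between genotypes. The shares of all probe sets called were 1.72% at room temperature, 5.8% at 4 °C and 6.96% averaged. Averaged over temperature, 3 of the 4 were lower at an unadjusted p under 0.05, against 9.41% of all probe sets. Sdhc read 9.30, 9.32 and 9.31 in the knockouts and 9.74, 9.62 and 9.63 in the controls at room temperature. In the cold it read 9.19, 9.27 and 9.05 in the knockouts and 9.40, 9.25 and 9.22 in the controls. The groups were apart at room temperature (-0.35 ± 0.10, adjusted p = 0.112) and overlapped at 4 °C (-0.13 ± 0.10, adjusted p = 0.612). The averaged difference was -0.24 ± 0.07 (adjusted p = 0.0619). For the other 3, the catalytic Sdha, the iron-sulfur subunit Sdhb and the membrane anchor Sdhd, the averaged differences were -0.17, -0.11 and -0.24.

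Complex IV held 1 called gene, Cox6a2, which is described below. It was called higher at 4 °C and in the average, against 3.61% and 4.24% of all probe sets. Of the other 9 genes, 7 had a negative averaged difference. Cox6b1, a subunit on the intermembrane side, read 9.17, 9.37 and 9.38 in the knockouts and 9.52, 9.67 and 9.57 in the controls at room temperature. Its values at 4 °C were 9.27, 9.48 and 9.39 in the knockouts and 9.62, 9.53 and 9.88 in the controls. Every knockout lay below every control, and the averaged difference of -0.29 ± 0.08 had an adjusted p of 0.0598. Cox4i1, a large nuclear-encoded subunit to which ATP can bind, was 10.21, 10.23 and 10.22 in the knockouts and 10.43, 10.55 and 10.46 in the controls at room temperature. At 4 °C its groups overlapped, and the averaged difference was -0.19 ± 0.07 (adjusted p = 0.153). Cox5a, Cox6a1 and Cox8a differed on average by -0.13, -0.08 and -0.12, with 95% intervals of -0.27 to 0.01, of -0.23 to 0.06 and of -0.27 to 0.02. Cox5b and Cox7c had positive averaged differences of 0.05 and 0.10. For Cox5b, a dimmer probe set with a mean of 4.36 gave -0.11 (limma adjusted p = 0.716).

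In complex V, 2 of the 15 genes were called lower in the average, against 2.73% of all probe sets. Atp5e, the epsilon subunit of the central stalk, read 8.16, 7.87 and 8.10 in the knockouts and 8.60, 8.42 and 8.39 in the controls at room temperature. Its readings at 4 °C were 8.01, 7.93 and 8.22 in the knockouts and 8.31, 8.45 and 8.25 in the controls. Each knockout was below each control, by a narrow margin at 4 °C. The averaged difference was -0.35 ± 0.08 (1.28-fold lower, adjusted p = 0.0239), with -0.42 ± 0.12 at room temperature (adjusted p = 0.113) and -0.28 ± 0.12 at 4 °C (adjusted p = 0.246). A dimmer Atp5e probe set, with a mean of 4.51, gave -0.11 (adjusted p = 0.771). With the muscle score in the model the averaged difference was -0.34, about as large, but no longer called (adjusted p = 0.111). The call also ended without knockout replicate 2 or control replicate 1 at room temperature, or knockout replicates 1 or 2 or control replicate 2 at 4 °C (adjusted p = 0.0555 to 0.0652).

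Atp5k, subunit e, helps ATP synthase to form dimers. It read 8.14, 7.95 and 8.08 in the knockouts and 8.30, 8.33 and 8.09 in the controls at room temperature, where the groups overlapped. In the cold it read 7.70, 7.66 and 7.78 in the knockouts and 8.03, 8.12 and 8.22 in the controls, and the knockouts at 4 °C were the 3 lowest of all 12 arrays. The difference was -0.18 ± 0.11 at room temperature (adjusted p = 0.517), -0.41 ± 0.11 at 4 °C (1.33-fold lower, adjusted p = 0.0382) and -0.30 ± 0.07 averaged (1.23-fold lower, adjusted p = 0.0292). The call at 4 °C was lost without any single array of the 4 °C groups, without knockout replicate 3 at room temperature and without control replicate 1 at room temperature (adjusted p = 0.0505 to 0.128). The averaged call was kept only without knockout replicate 1 or control replicate 3 at room temperature, knockout replicate 3 at 4 °C or control replicate 1 at 4 °C (adjusted p = 0.0521 to 0.0725 for the other 8). With the muscle score in the model the difference was -0.39 at 4 °C (adjusted p = 0.0743) and -0.26 averaged (adjusted p = 0.172).

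The alpha, beta and gamma subunits of the ATP synthase's catalytic part were not called. Atp5b read 12.02, 12.06 and 12.05 in the knockouts and 12.15, 12.22 and 12.20 in the controls at room temperature, which were apart. Its 4 °C values were 11.99, 12.14 and 12.04 in the knockouts and 12.21, 12.14 and 12.08 in the controls, which overlapped. The averaged difference was -0.11, with a 95% interval of -0.25 to 0.03 (adjusted p = 0.385). Atp5a1, the alpha subunit, differed by -0.10, with an interval of -0.24 to 0.04, and Atp5c1, the gamma subunit, by -0.02, with an interval of -0.19 to 0.14. The c-ring gene Atp5g2 differed by -0.13 and Atp5g3 by 0.08. In the peripheral stalk, Atp5h, Atp5j and Atp5o had positive averaged differences of 0.04, 0.13 and 0.21 and Atp5f1 a negative one of -0.09, and none of the 4 was called. A dimmer Atp5h probe set, with a mean of 4.09, gave -0.17 (limma adjusted p = 0.580).

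**Figure D3:**
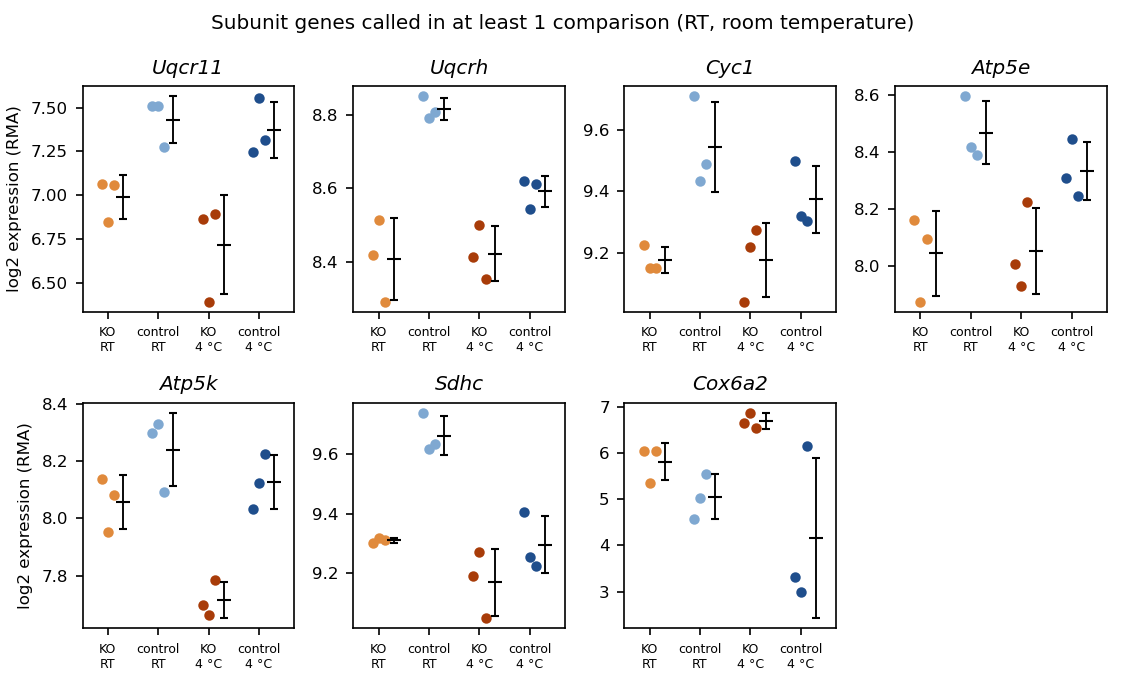
Log2 expression (RMA) of the 7 subunit genes called in at least 1 comparison. Coloured points are arrays and black marks are the mean ± SD of 3 arrays, with knockouts left of controls at each temperature and a separate axis for each gene. Knockouts and controls do not overlap for Uqcr11, Uqcrh, Cyc1 and Atp5e, and 1 of the 3 controls at 4 °C lies apart for Cox6a2.

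The promoters of Uqcr11, Uqcrh, Atp5e and Atp5k, taken from RefSeq, are shown because their transcripts were called lower in the same comparison. Each runs 250 bases before to 50 bases after the annotated start, on GRCm38.p6, in the direction of transcription: Uqcr11 at chr10:80406772-80407071, Uqcrh at chr4:116075021-116075320, Atp5e at chr2:174464052-174464351 and Atp5k at chr5:108434350-108434649, all on the minus strand. Capitals mark matches on either strand to 4 short motifs of factors known to act on respiratory genes: CGCATGCG for NRF1, AAGGTCA for ERR, CCGGAAGT for GABP and AAGATGGC for YY1.
Uqcr11: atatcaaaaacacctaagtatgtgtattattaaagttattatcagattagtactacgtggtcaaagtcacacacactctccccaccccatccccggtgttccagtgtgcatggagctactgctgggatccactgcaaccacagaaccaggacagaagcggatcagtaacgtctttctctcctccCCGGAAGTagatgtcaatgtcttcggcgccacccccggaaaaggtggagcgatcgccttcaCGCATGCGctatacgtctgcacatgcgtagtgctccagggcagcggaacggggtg
Uqcrh: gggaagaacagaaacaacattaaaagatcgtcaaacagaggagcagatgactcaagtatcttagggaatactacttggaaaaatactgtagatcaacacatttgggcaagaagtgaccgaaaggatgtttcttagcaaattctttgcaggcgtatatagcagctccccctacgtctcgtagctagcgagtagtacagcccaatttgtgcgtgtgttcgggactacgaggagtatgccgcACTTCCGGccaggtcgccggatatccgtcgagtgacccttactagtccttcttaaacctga
Atp5e: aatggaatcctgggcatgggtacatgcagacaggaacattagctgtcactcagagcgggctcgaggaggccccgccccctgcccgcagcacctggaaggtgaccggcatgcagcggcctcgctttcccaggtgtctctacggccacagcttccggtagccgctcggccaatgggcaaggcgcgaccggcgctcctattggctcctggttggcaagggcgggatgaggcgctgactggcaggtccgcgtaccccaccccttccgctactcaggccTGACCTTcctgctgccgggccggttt
Atp5k: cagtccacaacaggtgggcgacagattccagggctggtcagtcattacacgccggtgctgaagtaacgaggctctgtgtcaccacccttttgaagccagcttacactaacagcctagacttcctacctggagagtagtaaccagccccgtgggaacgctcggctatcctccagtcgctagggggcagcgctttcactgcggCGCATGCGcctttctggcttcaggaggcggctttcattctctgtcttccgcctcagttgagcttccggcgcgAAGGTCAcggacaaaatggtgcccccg
The Uqcr11 window holds an NRF1 and a GABP match, the Uqcrh window a GABP match, the Atp5e window an ERR match, and the Atp5k window an NRF1 and an ERR match. No promoter is shown for Cyc1, Sdhc or Cox6a2. Of the 38 genes, 30 had a promoter in the table. The NRF1 letters were found in 7 of these 30 (23.3%), against 1.91% of 27025 genes. ERR letters were found in 5 (16.7%, against 4.66%), GABP letters in 4 (13.3%, against 4.0%) and YY1 letters in 2 (6.67%, against 2.88%). A match describes the letters in these windows and is not a binding site.

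Cox6a2 encodes the heart and skeletal muscle isoform of a complex IV subunit, and brown fat is also known to express it. It read 6.05, 5.34 and 6.04 in the knockouts and 4.57, 5.03 and 5.55 in the controls at room temperature. The readings at 4 °C were 6.66, 6.87 and 6.54 in the knockouts and 3.33, 3.00 and 6.14 in the controls. The knockouts at 4 °C were the 3 highest arrays, and control replicate 3 stood far above the other controls at 4 °C. The difference was 2.53 ± 0.61 at 4 °C (5.78-fold, 95% interval 1.21 to 3.85 on the log2 scale, adjusted p = 0.0286), 0.76 ± 0.61 at room temperature (adjusted p = 0.685) and 1.64 ± 0.43 averaged (3.13-fold, adjusted p = 0.0378). Cox6a1, the widespread isoform, averaged 12.37 ± 0.06 in the knockouts and 12.50 ± 0.02 in the controls at room temperature (SD, n = 3 each). At 4 °C it averaged 12.35 ± 0.09 in the knockouts and 12.39 ± 0.08 in the controls.

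Skeletal muscle transcripts varied between arrays and moved with Cox6a2 in the controls. The muscle score, the mean of 19 muscle markers, was 6.10, 2.83 and 3.63 in the knockouts and 6.19, 6.61 and 7.06 in the controls at room temperature. At 4 °C the score was 2.51, 6.39 and 5.61 in the knockouts and 5.24, 4.67 and 7.67 in the controls at 4 °C. In the 6 controls the arrays had the same order by Cox6a2 as by muscle score, and in the 6 knockouts 2 arrays had the same rank. The knockout with the lowest score of all, replicate 1 at 4 °C, read 6.66 for Cox6a2. With muscle score added to the model, the Cox6a2 difference was 2.90 at 4 °C (adjusted p = 0.00612) and 2.27 averaged (adjusted p = 0.0101). That fit used the same slope of the score for both genotypes, and the part of muscle in the Cox6a2 difference was not tested. With no score in the model and without control replicate 3 at 4 °C, the Cox6a2 difference was 3.52 at 4 °C (adjusted p = 1.26e-05) and 2.14 averaged (adjusted p = 1.58e-05).

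The call of Cox6a2 at 4 °C was lost without any 1 of the 3 knockouts at 4 °C and without control replicate 1 or 2 at 4 °C (1.95 to 2.60, adjusted p = 0.0766 to 0.123). The averaged call was lost without each of 9 arrays, and was kept without knockout replicate 2 at room temperature, control replicate 3 at room temperature or control replicate 3 at 4 °C (1.36 to 1.68, adjusted p = 0.0706 to 0.0918 for the 9). With the array of conflicting labels placed among the controls at 4 °C, both calls were lost as well (2.18 at 4 °C, adjusted p = 0.0757, and 1.59 averaged, adjusted p = 0.0933). They were also lost with all probe sets tested (adjusted p = 0.0705 at 4 °C and 0.0857 averaged) and with a trended and robust variance (adjusted p = 0.0857 at 4 °C). Of the 19 muscle markers, 0 were called by limma in a genotype comparison. The shares of all probe sets called were 1.72% at room temperature, 5.8% at 4 °C and 6.96% averaged. The median differences of the 19 markers were -2.28 at room temperature, -0.98 at 4 °C and -1.57 averaged. At an unadjusted p under 0.05, 13 of the 19 were lower at room temperature and 13 in the average, against 6.22% and 9.41% of all probe sets. At 4 °C 0 had such a p, against 16.9%. Muscle also expresses the other subunits. With the score in the model, the median difference of the 38 genes was -0.11 at room temperature and -0.12 at 4 °C.

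**Figure D4:**
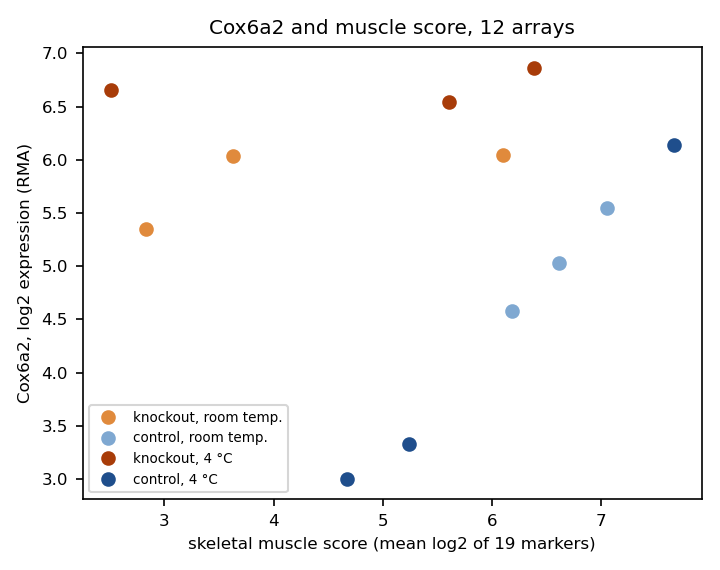
Cox6a2 log2 expression (RMA) against the skeletal muscle score (mean log2 of 19 markers), 1 point per array, coloured by genotype and temperature. The 6 controls keep the same order on both axes, while the knockouts lie between 5.34 and 6.87 over scores of 2.51 to 6.39.

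Cold was compared with room temperature within each genotype, which asks whether 5 h at 4 °C changes subunit transcripts. Few subunit genes passed the test. In the knockouts 0 of the 38 were called by limma, against 9.03% of all probe sets, and 3 had an unadjusted p under 0.05, against 20.7%. All 3 knockouts at 4 °C lay above all 3 at room temperature for 5 genes, against 11.7% of all probe sets, and below them for 4, against 14.1%. In the controls 1 was called, Sdhc, against 11.1% of all probe sets, and 5 had an unadjusted p under 0.05, against 23.1%. The controls at 4 °C lay above those at room temperature for 2 genes, against 11.6% of all probe sets, and below them for 4, against 14.3%. The median difference was -0.04 in the knockouts and -0.06 in the controls, against -0.01 over all probe sets in each. Averaged over genotype, 1 gene was called, again Sdhc, against 17.6% of all probe sets, and 6 had an unadjusted p under 0.05, against 27.8%.

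All 4 genes of complex II lay lower in the cold in both genotypes, with medians of -0.15 in the knockouts and -0.21 in the controls. Most of the 38 genes did so too, 60.5% in the knockouts and 73.7% in the controls, against 52.6% and 52.1% of all probe sets. Complex III had 5 of 8 lower in the knockouts and 7 in the controls, and complex V 10 and 12 of 15. Whether the complexes differ in the cold was not tested. For Sdhc, whose values are given above, the controls at 4 °C all lay below the controls at room temperature (-0.37 ± 0.10, adjusted p = 0.0310). In the knockouts the difference was -0.14 ± 0.10 (adjusted p = 0.500), while averaged over genotype it was -0.26 ± 0.07 (adjusted p = 0.0229). The call in the controls was lost without any 1 of the 3 controls at room temperature and without control replicate 2 or 3 at 4 °C (adjusted p = 0.0588 to 0.110). It was also lost when control replicate 3 at room temperature, the array with conflicting labels, was placed among the controls at 4 °C (-0.30, adjusted p = 0.292). The averaged call was lost without control replicate 1 at room temperature, knockout replicate 3 at 4 °C or control replicate 2 at 4 °C (adjusted p = 0.0523 to 0.0578), with that array moved (-0.22, adjusted p = 0.151), and with the arrays centred on their medians (-0.22, adjusted p = 0.0576), where Cox7c was called instead (0.35, adjusted p = 0.0365). Sdhd read 9.73, 9.85 and 9.77 in the knockouts at 4 °C, against 10.13, 10.03 and 9.89 in the knockouts at room temperature. In the controls it read 10.14, 9.73 and 10.07 at 4 °C, against 10.47, 10.08 and 10.33 at room temperature. Its averaged difference was -0.27 ± 0.10 (adjusted p = 0.0701).

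Among the other genes, Cox7c, a small subunit of complex IV, read 5.57, 5.53 and 5.90 in the knockouts at 4 °C, against 5.42, 5.06 and 5.42 in the knockouts at room temperature. In the controls it read 5.45, 5.50 and 5.58 at 4 °C, against 5.55, 5.11 and 5.10 at room temperature. The groups were apart in the knockouts and overlapped in the controls, and the averaged difference was 0.31 ± 0.11 (adjusted p = 0.0706). Cox5b was the 1 gene for which all 6 arrays at 4 °C lay above all 6 at room temperature (0.20 ± 0.09, adjusted p = 0.157), against 3.05% of all probe sets, and 0 genes lay below, against 3.78%. Its values were 9.38 to 9.81 at 4 °C and 9.09 to 9.36 at room temperature. A dimmer Cox5b probe set, with a mean of 4.36, gave an averaged difference of -0.07 (adjusted p = 0.805). The largest averaged differences of complexes III and V were -0.16 ± 0.10 for Uqcr11 (adjusted p = 0.363) and 0.27 ± 0.13 for the dim Atp5j2 (adjusted p = 0.205). Atp5k had -0.34 ± 0.11 in the knockouts (adjusted p = 0.0646) and -0.11 ± 0.11 in the controls (adjusted p = 0.613). Cytochrome c differed by 0.12 ± 0.07 averaged (adjusted p = 0.304), and by genotype by 0.03, with a 95% interval of -0.12 to 0.19.

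**Figure D5:**
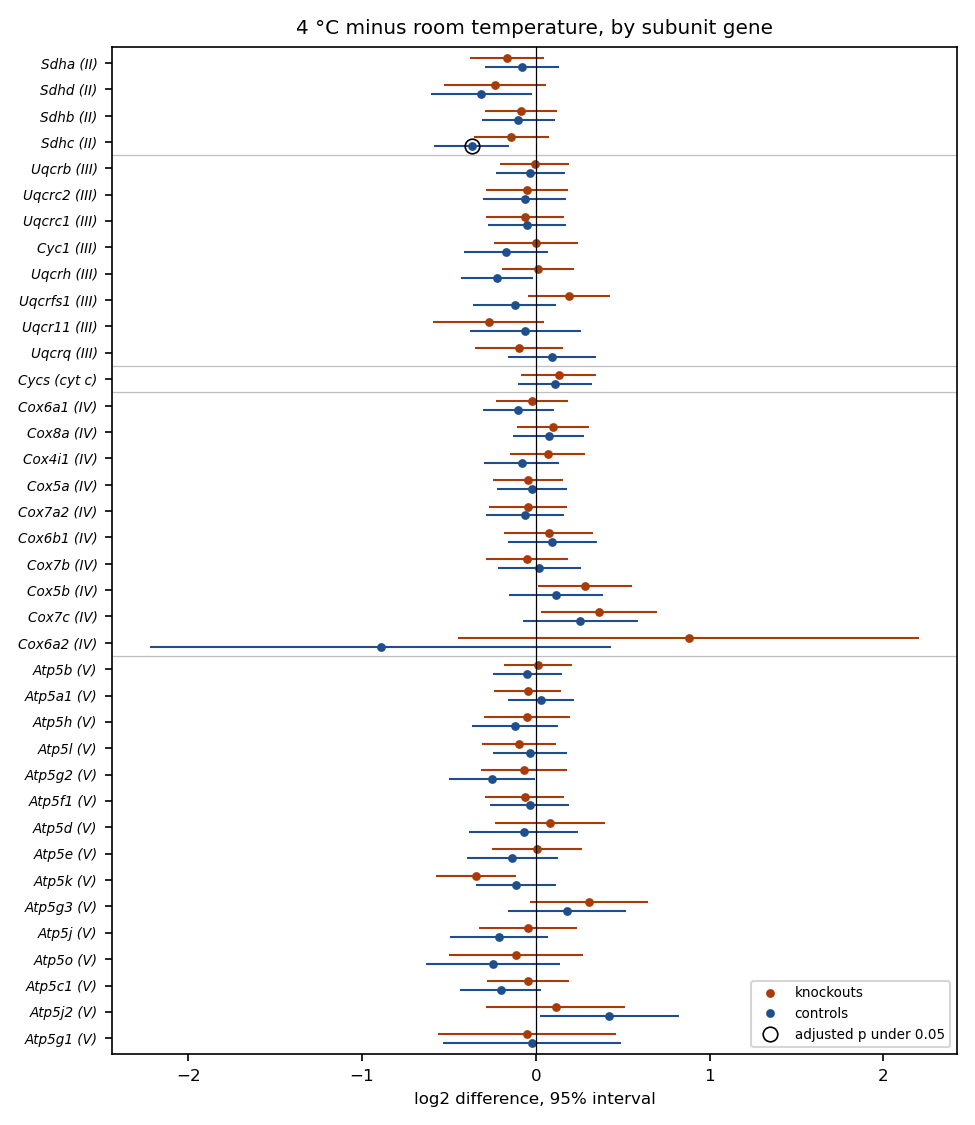
Difference between 4 °C and room temperature in log2 expression for each subunit gene, in knockouts and in controls (points), with the 95% interval of the model (lines). The circled point, with an adjusted p under 0.05, is Sdhc in the controls, and most intervals include 0.

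The interaction, the cold difference in the knockouts minus that in the controls, asks whether the genotypes respond differently to cold. By limma 0 of the 38 genes were called, against 0.306% of all probe sets, and 0 had an unadjusted p under 0.05, against 9.77%. The smallest p-values belonged to Cox6a2 (1.77 ± 0.86, adjusted p = 0.547), Uqcrfs1 (0.31 ± 0.15, adjusted p = 0.556), Uqcrh (0.24 ± 0.14, adjusted p = 0.626), Sdhc (0.23 ± 0.14, adjusted p = 0.660) and Atp5k (-0.23 ± 0.15, adjusted p = 0.685). That Uqcr11, Atp5k and Cox6a2 were called at 4 °C and not at room temperature is therefore not shown to be a difference between the temperatures. Without control replicate 3 at 4 °C, the Cox6a2 interaction was 2.76 (adjusted p = 0.00906). In that fit its cold difference was 0.88 in the knockouts (adjusted p = 0.0417) and -1.89 in the controls (adjusted p = 0.00114). The array left out had a muscle score of 7.67, the highest of all 12 arrays. The controls left at 4 °C, replicates 1 and 2, had scores of 5.24 and 4.67, the lowest of the 6 controls. The part of muscle in this interaction was not tested. With all arrays kept and the muscle score in the limma model, the Cox6a2 interaction was 1.26 (adjusted p = 0.671). Its cold difference was then 0.65 in the knockouts (adjusted p = 0.568) and -0.62 in the controls (adjusted p = 0.562).

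Of 12 further entries for subunits, tissue isoforms and regulators of these complexes, 11 were measured. Atpif1, the inhibitor that stops ATP synthase from running backwards, was higher in the knockouts. It read 6.90, 6.71 and 6.90 in the knockouts and 6.62, 6.48 and 6.24 in the controls at room temperature. In the cold it read 6.56, 6.54 and 6.64 in the knockouts and 5.89, 5.57 and 6.04 in the controls. The groups were apart at each temperature, by 0.39 ± 0.14 at room temperature (adjusted p = 0.219), 0.75 ± 0.14 at 4 °C (adjusted p = 0.00565) and 0.57 ± 0.10 averaged (adjusted p = 0.00297). The controls fell in the cold (-0.61 ± 0.14, adjusted p = 0.0125), and the knockouts differed by -0.25 ± 0.14 (adjusted p = 0.342), with an interaction of 0.36 ± 0.19 (adjusted p = 0.604). Both genotype calls were kept without each array in turn. The call of the controls in the cold was lost without control replicate 1 at room temperature or control replicate 2 at 4 °C, with an adjusted p of up to 0.0579.

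Cox6b2, known as the testis isoform of Cox6b1, was dim, with a mean of 3.96. It read 3.61, 3.95 and 3.74 in the knockouts and 4.33, 4.56 and 4.36 in the controls at room temperature. At 4 °C the values were 4.11, 3.86 and 4.04 in the knockouts and 3.79, 3.64 and 3.53 in the controls at 4 °C. The knockouts were below the controls at room temperature (-0.65 ± 0.13, adjusted p = 0.0191) and above them at 4 °C (0.35 ± 0.13, adjusted p = 0.147). The controls fell in the cold (-0.76 ± 0.13, adjusted p = 0.00224). The call at room temperature was lost without knockout replicate 1, knockout replicate 3 or control replicate 2 at room temperature, with an adjusted p of up to 0.0855. Of the isoforms prominent in muscle and brown fat, Cox7a1 differed on average by -0.16 (adjusted p = 0.290) and Cox8b by -0.27 (adjusted p = 0.0860). Ndufa4, a subunit of complex IV despite its name, differed by -0.20 (adjusted p = 0.122), the ATP synthase subunit Atp5md by -0.15 (adjusted p = 0.296) and Cox7a2l by -0.23 (adjusted p = 0.196). The lung isoform Cox4i2 lay at 2.90 (-0.30, adjusted p = 0.120), and Cox7b2, Cox8c and Cyct were not called in any of the 7 comparisons.

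Assembly factors were listed for each complex. Of 6 for complex III, 3 were called lower in the knockouts at 4 °C and 3 in the average, against 2.19% and 2.73% of all probe sets. Bcs1l, the AAA protein that inserts Uqcrfs1, read 5.54, 5.93 and 6.03 in the knockouts and 6.29, 6.21 and 6.63 in the controls at 4 °C. All 3 knockouts were below the controls (-0.54 ± 0.15, adjusted p = 0.0473), and the averaged difference was -0.47 ± 0.10 (adjusted p = 0.0144). Uqcc3, needed for early assembly around cytochrome b, read 6.64, 6.75 and 6.81 in the knockouts and 7.22, 7.17 and 7.43 in the controls at 4 °C, without overlap (-0.54 ± 0.12, adjusted p = 0.0160), and averaged -0.30 ± 0.08 (adjusted p = 0.0492). Ttc19, which clears fragments of Uqcrfs1, differed by -0.53 ± 0.14 at 4 °C (adjusted p = 0.0477), and Uqcc1 by -0.35 ± 0.09 averaged (adjusted p = 0.0307). Of these calls, the averaged one of Bcs1l was kept without each array in turn. That of Uqcc3 at 4 °C was lost without knockout replicate 1 or 2 or control replicate 3 at 4 °C. The others were lost without most arrays, namely 10 of the 12 for Bcs1l at 4 °C (all but knockout replicate 3 and control replicate 2 at 4 °C), 11 for Uqcc3 averaged (all but control replicate 3 at room temperature), 11 for Ttc19 (all but control replicate 3 at 4 °C) and 8 for Uqcc1, with an adjusted p of up to 0.175.

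Of 18 measured factors for complex IV, 1 was called lower at 4 °C and 2 in the average, against the same 2.19% and 2.73%. Taco1, which activates translation of a mitochondrially encoded subunit, read 5.61, 5.75 and 5.56 in the knockouts and 6.82, 6.48 and 6.26 in the controls at 4 °C. These groups did not overlap (-0.88 ± 0.19, adjusted p = 0.0163), and the averaged difference was -0.64 ± 0.13 (adjusted p = 0.0113). Pet100 differed by -0.40 ± 0.09 averaged (adjusted p = 0.0175). Both averaged calls were kept without each array in turn, while that of Taco1 at 4 °C was lost without knockout replicate 1 or 3 or control replicate 1 at 4 °C (adjusted p of up to 0.0778). Of the 4 factors for complex II and the 5 for complex V, 0 were called by limma between genotypes. In the average 1 and 2 were lower at an unadjusted p under 0.05, against 9.41% of all probe sets.

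Several assembly factors were called between 4 °C and room temperature, as were 17.6% of all probe sets in the comparison averaged over genotype. Sdhaf1, which helps to build iron-sulfur clusters into Sdhb, read 5.41, 5.02 and 5.17 in the knockouts at 4 °C, against 6.34, 6.19 and 6.41 in the knockouts at room temperature. In the controls it read 5.30, 5.00 and 5.73 at 4 °C, against 6.60, 6.54 and 6.26 at room temperature. It fell in both genotypes, by 1.12 ± 0.17 on the log2 scale in the knockouts (adjusted p = 0.00175) and by 1.12 ± 0.17 in the controls (adjusted p = 0.00158), and both calls were kept without each array in turn. Averaged over genotype, 1 complex IV factor rose, Cox19 (0.40 ± 0.08, adjusted p = 0.00489), and 6 fell, among them Coa6 (-0.60 ± 0.13, adjusted p = 0.00530), Surf1 (-0.43 ± 0.10, adjusted p = 0.00662) and Cox14 (-0.37 ± 0.08, adjusted p = 0.00674). For complex III, Bcs1l, Uqcc1 and Lyrm7 fell and Ttc19 rose. Sdhaf4 fell with Sdhaf1 for complex II, and Atpaf2 and Tmem242 fell for complex V. Of these averaged calls, those of Ttc19, Lyrm7, Tmem242, Cox15 and Cox18 were lost without 9, 9, 10, 6 and 5 of the 12 arrays, with an adjusted p of up to 0.117, and the others were kept without each array in turn.

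Of 15 regulators of respiratory gene transcription, 0 were called between genotypes by limma at room temperature, against 1.72% of all probe sets. There 1 was higher in the knockouts at an unadjusted p under 0.05, against 6.78%. At 4 °C 4 were called lower in the knockouts, against 2.19% of all probe sets. Ppargc1a, the coactivator that drives mitochondrial biogenesis, read 9.61, 9.99 and 9.88 in the knockouts and 11.49, 11.31 and 10.94 in the controls at 4 °C. At room temperature it read 8.42, 7.88 and 7.61 in the knockouts and 8.08, 7.26 and 8.17 in the controls. Both genotypes rose in the cold, by 1.85 ± 0.25 in the knockouts (adjusted p = 0.000820) and by 3.41 ± 0.25 in the controls (adjusted p = 2.09e-05), and the interaction was -1.56 ± 0.36 (adjusted p = 0.106). The other 3 were Esrrg, an orphan nuclear receptor (-0.82 ± 0.15, adjusted p = 0.00571), Polrmt, the mitochondrial RNA polymerase (-0.92 ± 0.19, adjusted p = 0.0112), and Ppargc1b, a relative of Ppargc1a (-0.56 ± 0.12, adjusted p = 0.0168). The Polrmt call was lost without knockout replicate 2 or control replicate 1 at 4 °C (adjusted p of up to 0.0574), and that of Ppargc1b without knockout replicate 2 or 3 or control replicate 2 at 4 °C (adjusted p of up to 0.0663). Averaged over temperature, 3 of the 15 were called lower, namely Esrrg, Polrmt and Ppargc1b, against 2.73% of all probe sets. The averaged call of Ppargc1b was lost without knockout replicate 2 or 3 at 4 °C, control replicate 1 or 3 at room temperature or control replicate 2 at 4 °C (adjusted p of up to 0.0631). Of the factors whose motifs were searched, Nrf1 differed on average by 0.28 (adjusted p = 0.0635) and Gabpa by 0.07 (adjusted p = 0.746). For ERR, Esrra differed by -0.28 (adjusted p = 0.309) and Esrrg, called lower as given above, by -0.56 (adjusted p = 0.00641). Yy1 was not called in the average. Between 4 °C and room temperature, averaged over genotype, limma called 3 of the 15 higher and 1 lower, against 17.6% of all probe sets in either direction. Ppargc1a, Gabpb1 and Pprc1 (0.57 ± 0.09, adjusted p = 0.000642) rose. Esrrg fell (-1.26 ± 0.11, adjusted p = 1.30e-05), and was called lower in each genotype (adjusted p = 0.000115 in the knockouts and 0.00138 in the controls). The averaged cold calls were kept without each array in turn.

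Complex I stood beside these complexes for comparison. Of its 32 measured subunit genes, 7 were called lower and 0 higher in the average over temperature, against 2.73% and 4.24% of all probe sets, with a median of -0.19. The smallest p belonged to Ndufa1, an accessory subunit (-0.65 ± 0.07, adjusted p = 0.000121). Next came Ndufa10 (-0.43 ± 0.08, adjusted p = 0.00649), Ndufa9 (-0.40 ± 0.08, adjusted p = 0.00835) and Ndufb3 (-0.39 ± 0.08, adjusted p = 0.00882). The calls of these 4 were kept without each array in turn, while those of Ndufs8, Ndufv1 and Ndufb5 were lost without 9, 10 and 12 of the 12 arrays (adjusted p of up to 0.115). Without control replicate 1 at room temperature, all 3 of these were lost. Whether complex I differs from complexes II to V was not tested.

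Markers of other cells were read beside these results. Mean endothelial marker levels were 6.94 to 7.04 in the knockouts and 7.05 to 7.55 in the controls at room temperature. At 4 °C they were 6.99 to 7.26 in the knockouts and 7.17 to 7.47 in the controls. Of the 8 markers, 0 were called between genotypes by limma, where 6.96% of all probe sets were called in the average. At an unadjusted p under 0.05, 3 were lower in the average, against 9.41% of all probe sets. Macrophage markers were 5.27 to 5.68 in the 6 knockouts and 5.09 to 5.97 in the 6 controls, with 0 of 11 called. In the average 1 was higher at an unadjusted p under 0.05, against 9.64% of all probe sets. Brown adipocyte markers were 9.38 to 9.55 in the knockouts and 9.13 to 9.46 in the controls at room temperature. In the cold they were 9.49 to 9.53 in the knockouts and 9.80 to 9.82 in the controls. There 3 of 12 were called lower, against 2.19% of all probe sets, and 1 of these was Ppargc1a, described above among the regulators. White adipocyte markers were 3.64 to 4.20 in the knockouts and 3.86 to 4.84 in the controls. In the average 2 of 5 were called lower, against 2.73% of all probe sets. The part of these levels in the subunit results was not tested.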

How the data were processed

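RNA from snap-frozen brown adipose tissue of 12 mice was hybridised to 1 array each, 3 in each of 4 groups. The deposited log2 values had been normalised with RMA by the authors, per the submitters' processing notes, with the version not given in the sources used here. RMA quantile normalisation gives every array nearly the same distribution, so differences are relative to the other probe sets of the array. Of 41345 probe sets, 23521 carry 1 gene symbol, 1814 several and 16010 none in the platform annotation used here, and the tests ran on the 23521. With limma 3.58.1 in R 4.3.3, the 4 group means were estimated for each probe set (8 residual degrees of freedom, 4.45 added by eBayes), and p-values were adjusted by Benjamini-Hochberg over the 23521 probe sets. There were 7 comparisons: genotype at each temperature, cold in each genotype, both averages, and the interaction. Intervals are 95% intervals of the model. Between 2 groups the standard error had a median of 0.14, and the number of arrays limits the precision. A p-value here reflects only how these 12 arrays varied. The script was tested on simulated data with known changes. Named members were those called in a comparison, the 5 smallest interaction p-values, the 3 largest ranges and the isoforms of Cox6a and Atp5g. In each complex, those with the largest averaged difference, highest level and lowest level were also named. From other lists, all further subunits were named, but only part of the called genes. Among those left out were the cold calls of Ndufv3 and Ndufb10 and the calls of Ndufa1 at each single temperature. Other members were named after their values were seen. The members and lists were chosen with earlier results of these data known. Same-numbered arrays were not treated as pairs: the deviations of 18 such pairs correlated at -0.18 to 0.16. Alternatives covered the array left out, centring, the filter on dim probe sets, the choice of probe set, the variance model, a muscle covariate, a replicate block and the array with conflicting labels.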

Additional observations from a re-analysis of the deposited data

Results flagged for a closer look

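The response of Cox6b2 to cold differed between the genotypes by the interaction test. The cold difference was 0.24 ± 0.13 in the knockouts and -0.76 ± 0.13 in the controls, and the interaction was 1.00 ± 0.18 (SE; limma adjusted p = 0.0391). All 3 knockouts were below the controls at room temperature and above them at 4 °C. The probe set was dim, with a mean of 3.96, and the interaction was no longer called without 11 of the 12 arrays, the exception being knockout replicate 2 at room temperature, with an adjusted p of 0.0531 to 0.101. It was found among 11 further subunits and isoforms that were each tested for an interaction.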

How the results depend on the processing

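The median difference of the 38 genes moved by less than the spread between replicates under every alternative. That spread was of the mean of the 38 genes, Cox6a2 included, between arrays of the same group. It was about as large as the medians for cold and for the interaction, so there it cannot show that they held. The median kept its sign in all comparisons but that of cold in the knockouts (-0.04 to 0.01). It ranged over -0.15 to -0.10 for genotype at room temperature, -0.13 to -0.09 at 4 °C and -0.14 to -0.11 averaged. Counts of called genes were small and moved easily. For genotype at room temperature (0 called), they were 2 with only probe sets of a mean over 4, and 1 with a trended and robust variance. At 4 °C (3 called), they were 1 with all probe sets tested and 0 with only the arrays compared. For the averaged genotype difference (6 called), the muscle covariate left 2, the filter on dim probe sets gave 9 (adding Sdhc, Uqcrfs1 and Cox6b1, all lower), the trended and robust variance 7, and the other alternatives beside the left-out arrays 4 or 5. For cold in the knockouts (0 called), both the filter on dim probe sets and the use of only the arrays compared gave 1. For cold in the controls (1 called), centring the arrays, using only the arrays compared and moving the array with conflicting labels each gave 0. For averaged cold (1 called, Sdhc), centring called Cox7c in its place, and the counts were 4 with the filter on dim probe sets, 2 with the mean of a gene's probe sets and 3 with the trended and robust variance. Leaving out 1 array at a time gave 0 for genotype at room temperature, 0 to 3 at 4 °C, 1 to 5 averaged, 0 to 1 for cold in the knockouts, 0 to 2 in the controls, 0 to 3 averaged, and 0 to 1 for the interaction. The cause of these moves was not tested. With the replicate number as a block, the counts were 0, 2 and 4 for genotype at room temperature, at 4 °C and averaged, 0, 1 and 1 for cold in the knockouts, in the controls and averaged, and 0 for the interaction. Of the 18 same-numbered pairs, 2 correlated above 0.1, as did 6 of the 36 other pairs. No call reversed its direction. The filter left 36 of the 38 genes, without Atp5j2 and Atp5g1.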
